A study of Homo sapiens with 45 samples.

Results

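The genes described here lie on chromosome 4 between 10 and 50 Mb, on the short arm and reaching to the centromere. They were selected on their values in these data: a list of 56 genes of that stretch was drawn up because they were higher together in RNF25 KO and RNF25 GCN2 DKO cells than in AAVS1 cells. Of the 56, 48 had a mean raw count of 10 or more over the 45 libraries and are called the members, out of 9316 genes with such a mean in the whole series. All 48 also passed the filter on low counts for the tests, which left 11080 genes. The 8 listed genes under the minimum were CPEB2, PROM1, PACRGL, CCDC149, TBC1D19, PCDH7, ARAP2 and FAM114A1. The highest mean among those 8 was 9.29 for ARAP2, and the lowest among the members was 12.5 for SEPSECS. The same stretch holds 13 further genes with a mean count of 10 or more that the list does not name.

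The libraries were made from polyA RNA of HAP1, a near-haploid human cell line derived from the leukaemia line KBM-7. The 6 genotypes were AAVS1 (the reference line, named after a site often edited as a neutral control), RNF25 KO, eS31 K113R, GCN2 KO, ZNF598 KO and the double knockout RNF25 GCN2 DKO. Each was left untreated or given azacytidine (azaC) at 5 uM for 4 h, and 3 of them (GCN2 KO, RNF25 KO and AAVS1) were in addition given halofuginone (HF) at 25 nM for 4 h, with 3 libraries in each of the 15 groups. The labels name the libraries only as biological replicates, so p-values measure the spread between these libraries, and they do not say how many clones stand for a genotype, so a genotype and a clone cannot be told apart.

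A chromosomal stretch is not a pathway. The members work in DNA replication and mitosis, transcription, ubiquitin conjugation, metabolism, membrane transport, trafficking and the cytoskeleton, and what they share is their place on the chromosome. Stalled ribosomes are marked by the ubiquitin ligases RNF25 and ZNF598, eS31 is a protein of the small ribosomal subunit, and GCN2 is the kinase that starts the integrated stress response to stalled or starved ribosomes. AzaC is a cytidine analogue taken up into RNA and DNA, and HF inhibits prolyl-tRNA charging. The files hold RNA counts, and neither DNA copy number nor chromatin was analysed here. In such bulk libraries fewer cells expressing a gene and less RNA per cell cannot be told apart.

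The libraries held between 1135498 and 2478875 counts (median 1541554). Untreated AAVS1 replicate 2 and azaC-treated RNF25 KO replicate 2 stood apart from the other libraries, and values without them are given where a call or a described median changed. None of 10 haematopoietic marker genes reached a mean count of 10 (summed level 0 to 0.881 CPM, the count scaled to a common library size), among them PTPRC, CD34 and GATA1, although the parent line is leukaemic. The mesenchymal genes VIM, FN1 and CDH2 all reached it, and of 5 epithelial markers only KRT18 did. RNF25 itself had 0 to 7 counts in every library, 24 in all over the 9 AAVS1 libraries and 14 over the 9 RNF25 KO libraries, too few to check the knockout by its mRNA. EIF2AK4, which encodes GCN2, had 23 to 41 counts in the GCN2 KO libraries and 49 or more in the AAVS1 libraries, and in RNF25 GCN2 DKO libraries it had 32 to 92, a range that overlaps AAVS1. ZNF598 had 53 to 74 counts in ZNF598 KO libraries against 87 to 176 in AAVS1.

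Sequence just before the start of 3 members is shown because they stand for the main patterns below: OCIAD2, which had almost no counts in AAVS1, GNPDA2, whose mean difference over the 5 comparisons of both RNF25-edited lines with AAVS1 came next after OCIAD2, and LIMCH1, which was also higher in eS31 K113R. The letters come from RefSeq, build GRCh38.p14, 5′ to 3′ on the gene's strand, and stop where an annotated exon begins. Capitals mark CG pairs.
OCIAD2 (chr4:48906938-48907078, minus strand): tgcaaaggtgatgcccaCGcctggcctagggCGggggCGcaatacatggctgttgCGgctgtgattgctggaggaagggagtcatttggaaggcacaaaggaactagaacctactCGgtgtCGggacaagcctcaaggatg
GNPDA2 (chr4:44726596-44726806, minus strand): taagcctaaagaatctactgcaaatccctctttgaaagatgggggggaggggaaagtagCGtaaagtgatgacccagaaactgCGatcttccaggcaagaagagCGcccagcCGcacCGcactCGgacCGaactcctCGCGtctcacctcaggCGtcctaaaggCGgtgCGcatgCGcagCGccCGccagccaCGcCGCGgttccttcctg
LIMCH1 (first of 4 starts, chr4:41359357-41359606, plus strand): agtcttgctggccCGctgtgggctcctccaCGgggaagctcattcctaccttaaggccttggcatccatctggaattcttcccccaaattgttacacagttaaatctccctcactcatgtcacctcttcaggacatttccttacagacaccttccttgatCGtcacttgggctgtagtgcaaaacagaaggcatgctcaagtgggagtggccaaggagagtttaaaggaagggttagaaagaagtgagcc
These stretches hold 6, 18 and 3 CG pairs. In full windows of 250 bases before a start, the upstream OCIAD2 start had 9 CG pairs, GNPDA2 had 23, and the LIMCH1 starts ranged from 2 to 42. The median was 22.5 over the 58 starts of the 42 members found in the table and 11 over all 35116 starts. The GC box letters GGGCGG, read on both strands with overlaps counted, occurred in 55.2% of the members' windows and in 42.6% of all windows. The set of all starts had no count minimum, whereas the members did. Neither contrast can therefore be read as a trait of this stretch. A match describes the letters only.

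In untreated cells the members were higher in both RNF25-edited lines than in AAVS1. The values chose the members, so these comparisons are described without a test. The median log2 fold change over the 48 members was 0.58 in RNF25 KO and 0.67 in RNF25 GCN2 DKO, beside −0.00036 and 0.0030 over all genes tested. Of the 48, 39 were above 0 in RNF25 KO and 40 in RNF25 GCN2 DKO. With azaC the medians were 0.55 and 0.78, and with HF it was 0.54 in RNF25 KO, the double knockout having no HF group. The 2 untreated comparisons share the 3 untreated AAVS1 libraries, and the 2 azaC comparisons share the 3 azaC-treated AAVS1 libraries. Leaving out the pair of libraries that stood apart raised the untreated medians to 0.71 and 0.90.

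Per library, the median member level is given as the log2 CPM difference from the untreated AAVS1 mean. It was −0.16 to 0.20 in untreated AAVS1, 0.48 to 0.62 in untreated RNF25 KO and 0.56 to 0.81 in untreated RNF25 GCN2 DKO. Under azaC it was −0.19 to −0.0097 in AAVS1, 0.35 to 0.64 in RNF25 KO and 0.74 to 0.80 in RNF25 GCN2 DKO. Under HF it was −0.042 to 0.19 in AAVS1 and 0.71 to 0.82 in RNF25 KO. Every one of the 15 RNF25-edited libraries lay above all 9 AAVS1 libraries. Those libraries chose the members, so this separation was favoured by the choice and is a description only. In the 21 libraries of GCN2 KO, ZNF598 KO and eS31 K113R the median member level ranged from −0.15 to 0.24, overlapping AAVS1. As a share of all counts, the members held 0.334 to 0.449% in AAVS1, 0.451 to 0.618% in RNF25 KO and 0.588 to 0.634% in RNF25 GCN2 DKO.

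**Figure D1:**
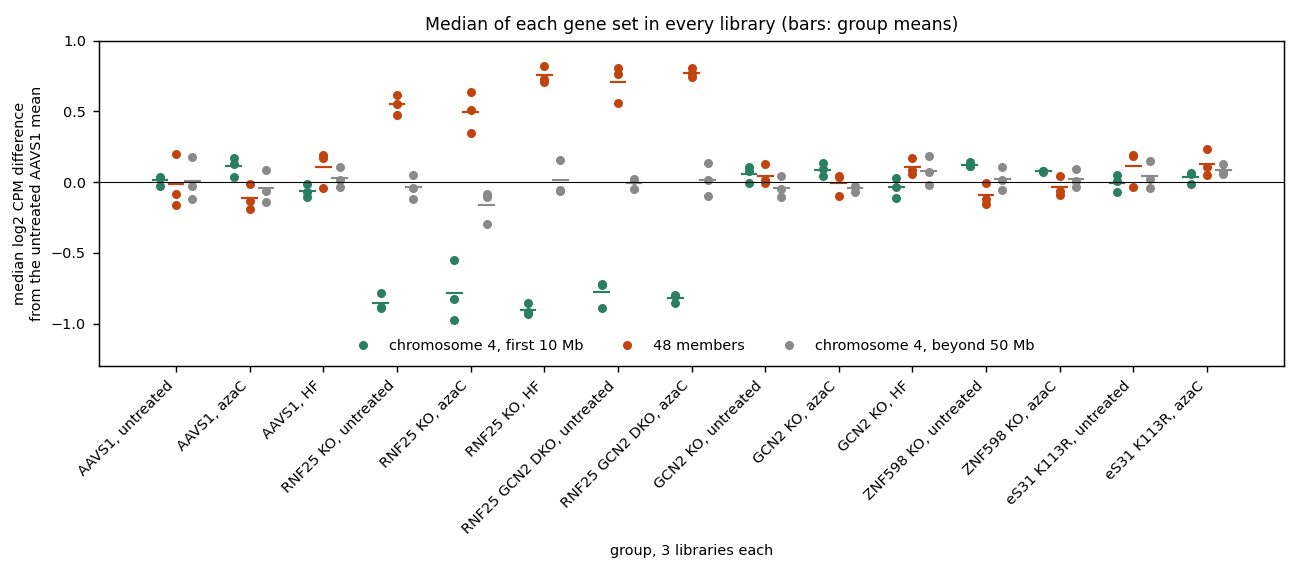
Median over the members (orange), over chromosome 4 genes of the first 10 Mb (green) and over those beyond 50 Mb (grey) in each of the 45 libraries, as the log2 CPM difference from the untreated AAVS1 mean, with group means as bars. The members sit at 0.35 to 0.82 in the 15 libraries of RNF25 KO and RNF25 GCN2 DKO, where genes of the first 10 Mb sit at −0.98 to −0.55, and in the other 30 libraries the members stay between −0.19 and 0.24.

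The difference was not the same along the chromosome. Genes of the first 10 Mb, of which 59 were tested and none is a member, were lower in both lines, with median log2 fold changes of −0.92 in RNF25 KO and −0.88 in RNF25 GCN2 DKO in untreated cells. The members nearest that edge, RAB28 and BOD1L1, were lower as well, and so were the unlisted WDR1 (−0.92 ± 0.20 SE and −0.69 ± 0.19 SE in the untreated lines) and NKX3-2 (−1.23 ± 0.31 SE and −1.46 ± 0.31 SE). From CC2D2A to GNPDA2 the 39 members had medians of 0.63 and 0.77. Within that run, the 18 members from CC2D2A to STIM2 had medians of 0.48 and 0.44, and all 21 members from RELL1 to GNPDA2 were above 0, with medians of 0.68 and 1.02. The 7 members from COMMD8 to OCIAD2 had medians of −0.12 and −0.35. The 300 tested genes beyond 50 Mb had medians of −0.076 and −0.020. The borders of these runs were drawn after their values were seen. Of the 39 members from CC2D2A to GNPDA2, 37 and 38 were above 0 in the untreated lines, and of the 9 at both ends only 2 were in each, so the description of the whole 10 to 50 Mb stretch as higher holds for its middle.

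**Figure D2:**
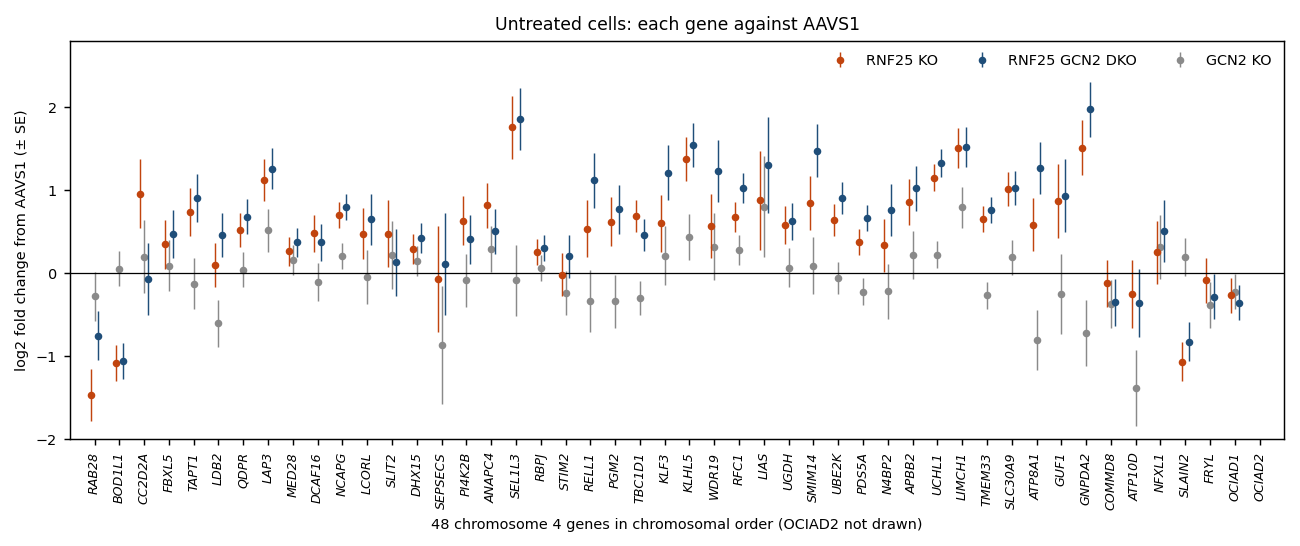
Log2 fold change from AAVS1 in untreated cells with its SE, for the members in chromosomal order, in RNF25 KO (orange), RNF25 GCN2 DKO (blue) and GCN2 KO (grey). Both RNF25-edited lines lie below 0 for RAB28 and BOD1L1, mostly above 0 from CC2D2A to GNPDA2, and near or below 0 from COMMD8 to OCIAD1 apart from NFXL1 (0.25 and 0.51). OCIAD2 (6.70 and 6.54) is not drawn.

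The genes next to the outer borders were AFAP1 and ACOX3 on one side and DCUN1D4 and SGCB on the other. In untreated RNF25 KO their log2 fold changes were 0.13 ± 0.46, −0.28 ± 0.49, 0.23 ± 0.29 and 0.46 ± 0.28 (SE), and in untreated RNF25 GCN2 DKO −0.32 ± 0.47, −0.80 ± 0.50, 0.30 ± 0.28 and 0.16 ± 0.28. Under azaC AFAP1 was −0.75 ± 0.44 in RNF25 KO and −1.37 ± 0.47 in RNF25 GCN2 DKO, and ACOX3 −0.37 ± 0.47 and −2.24 ± 0.59. Both lay lower in RNF25 GCN2 DKO, whereas ACOX3 in RNF25 KO was within its SE of 0. With HF in RNF25 KO AFAP1 was −0.62 ± 0.45 and ACOX3 0.19 ± 0.50. DCUN1D4 and SGCB stayed between −0.032 and 0.46 in all 5 comparisons. The 20 unlisted genes inside the stretch that passed the filter had medians of 0.29 in untreated RNF25 KO and 0.32 in RNF25 GCN2 DKO. Of these, 13 and 11 were above 0. In untreated RNF25 KO the ribosomal protein gene RPL9 was 0.62 ± 0.19 and SHISA3 1.35 ± 0.26 (SE). AC114728.1 was 0.057 ± 0.17 and ZCCHC4 −0.62 ± 0.61. SHISA3 had a mean of 25.4 CPM in untreated AAVS1. In untreated GCN2 KO, ZNF598 KO and eS31 K113R it had 44.0, 38.2 and 42.7, so its rise was not particular to the RNF25-edited lines.

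Counted by library, all 3 libraries lay above all 3 AAVS1 libraries for 21 of 48 members in untreated RNF25 KO, where 6.14% of all tested genes did, and for 27 in untreated RNF25 GCN2 DKO, against 6.34%. Under azaC these counts were 25 against 8.12% and 32 against 7.7%, and under HF 24 in RNF25 KO against 6.72%. Members with every library lower numbered 3, 4 and 3 in untreated, azaC-treated and HF-treated RNF25 KO, against 6.02%, 6.5% and 6.26% of all tested genes. In RNF25 GCN2 DKO they numbered 3 untreated and 2 with azaC, against 5.99% and 7.65%. Since these contrasts chose the members, nothing is read from the shares. Members with every library above AAVS1 in all 5 comparisons were TAPT1, NCAPG, SEL1L3, TBC1D1, KLHL5, RFC1, UCHL1, LIMCH1, TMEM33, SLC30A9, GNPDA2 and OCIAD2. Among the members only RAB28 and BOD1L1 had every library below AAVS1 in all 5. The share of all genes doing so in all 5 was not computed, so these names are a description only.

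**Figure D3:**
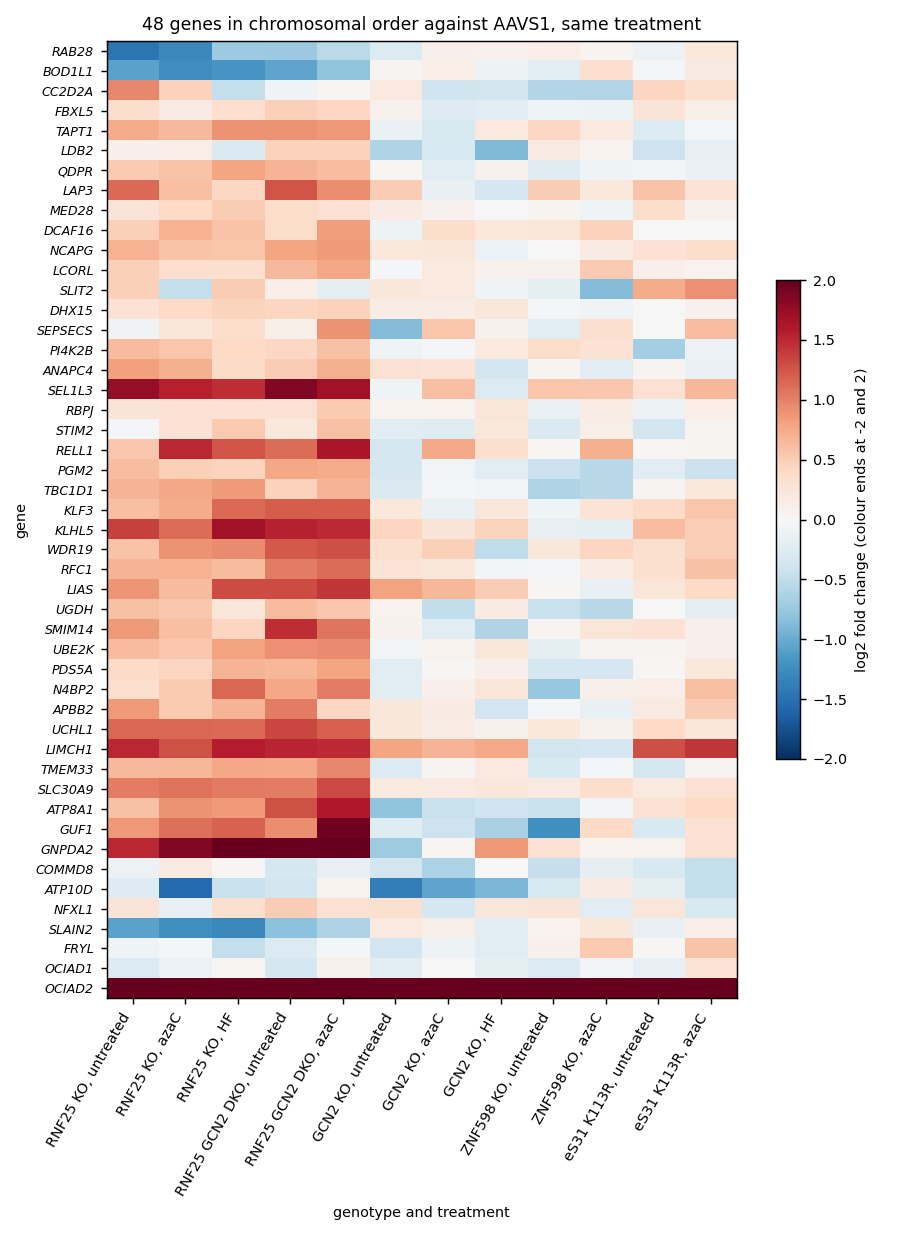
Log2 fold change of each member, in chromosomal order, from AAVS1 under the same treatment in 12 comparisons, with the colour ending at −2 and 2. The 5 columns of RNF25 KO and RNF25 GCN2 DKO are red from RELL1 to GNPDA2 and blue at RAB28, BOD1L1 and (below 0 in all 5) SLAIN2, and the row of OCIAD2 is at the red end in every column.

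Of the 5 members in DNA replication, cohesion, condensation and mitosis, 4 were above 0 in each of the 5 comparisons. NCAPG, a subunit of the condensin complex that compacts mitotic chromosomes, had 183, 189.6 and 174 CPM in the untreated AAVS1 libraries, 242, 353 and 293 in RNF25 KO and 334, 275 and 342 in RNF25 GCN2 DKO. The libraries of both edited lines were above every AAVS1 library, with log2 fold changes of 0.70 ± 0.15 (SE) and 0.80 ± 0.15. Its exons share 33.1% of their length with another gene on the opposite strand, so part of its counts is uncertain. RFC1, the large subunit of the replication clamp loader, had 129, 201 and 153 CPM in untreated AAVS1, 218, 314 and 244 in RNF25 KO and 319, 318 and 348 in RNF25 GCN2 DKO. It differed from AAVS1 by 0.68 ± 0.18 and 1.02 ± 0.18. BOD1L1, which protects stalled replication forks, was the exception (chr4:13568738-13627723; coordinates of genes are on GRCh38). It had 211, 192 and 137 CPM in untreated AAVS1, 78.1, 96.4 and 80.4 in RNF25 KO and 69.0, 87.6 and 102 in RNF25 GCN2 DKO. All 6 edited libraries were below the 3 AAVS1 libraries, and the log2 fold changes were −1.08 ± 0.22 and −1.06 ± 0.22, with a range of −1.24 to −0.81 over the 5 comparisons. ANAPC4 of the anaphase-promoting complex and the cohesin regulator PDS5A ranged from 0.39 to 0.82 and from 0.38 to 0.79.

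The 7 members in transcription and RNA had the smallest shift among the role groups in untreated RNF25 KO, with a median of 0.26 and 0.46 in RNF25 GCN2 DKO. RBPJ, the DNA-binding effector of Notch signalling, had 205, 262 and 209 CPM in untreated AAVS1, 269.7, 278 and 259.9 in RNF25 KO and 280.1, 259.5 and 296 in RNF25 GCN2 DKO. AAVS1 replicate 2 overlapped both lines, and the log2 fold changes were 0.25 ± 0.15 and 0.30 ± 0.15. KLF3, a zinc-finger repressor, ranged from 0.60 to 1.21 over the 5 comparisons and LDB2, a LIM-domain cofactor, from −0.29 to 0.47. The spliceosomal helicase DHX15 ranged from 0.29 to 0.46 and the Mediator subunit MED28, whose exons share 32.1% of their length with a gene on the opposite strand, from 0.26 to 0.51. LCORL ranged from 0.31 to 0.77, and NFXL1, which lies beyond 47 Mb, from −0.16 to 0.51.

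In ubiquitin, protein degradation and peptidases, the 7 members had medians of 0.64 in untreated RNF25 KO and 0.91 in RNF25 GCN2 DKO. UCHL1, a deubiquitinase abundant in neurons (chr4:41256413-41268455), had 464, 419.6 and 535 CPM in untreated AAVS1, 1293, 882 and 978 in RNF25 KO and 1404, 1037 and 1126 in RNF25 GCN2 DKO. Every edited library was above every AAVS1 library. The log2 fold changes were 1.15 ± 0.16 and 1.33 ± 0.17, and over the 5 comparisons they stayed within 1.14 to 1.33. KLHL5, a Kelch-repeat protein, had 49.1, 75.8 and 45.6 CPM in untreated AAVS1, 137, 189 and 120.3 in RNF25 KO and 140, 222 and 139.7 in RNF25 GCN2 DKO, without overlap with AAVS1. Its differences were 1.37 ± 0.27 and 1.55 ± 0.27. The ubiquitin-conjugating enzyme UBE2K ranged from 0.54 to 0.94, leucine aminopeptidase LAP3 from 0.41 to 1.26, and the iron-sensing F-box protein FBXL5 from 0.16 to 0.48. DCAF16, a substrate receptor of a ubiquitin ligase, ranged from 0.37 to 0.84. COMMD8, beyond 47 Mb, ranged from −0.35 to 0.16.

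The 8 members grouped as metabolic enzymes had medians of 0.60 and 0.72 in the untreated lines. GNPDA2, a deaminase of glucosamine 6-phosphate (chr4:44682200-44726595), had 7.75, 13.5 and 7.06 CPM in untreated AAVS1, 28.99, 28.0 and 26.2 in RNF25 KO and 38.9, 39.3 and 36.2 in RNF25 GCN2 DKO. Under azaC it had 8.72, 12.1 and 4.09 in AAVS1, 34.9, 32.1 and 26.0 in RNF25 KO and 42.9, 35.9 and 35.0 in RNF25 GCN2 DKO. The edited libraries were above AAVS1 in both conditions, and the log2 fold changes ranged from 1.51 to 2.23. QDPR, which recycles tetrahydrobiopterin, had 54.2, 79.3 and 91.8 CPM in untreated AAVS1, 119, 91.4 and 115 in RNF25 KO and 135, 107 and 124 in RNF25 GCN2 DKO. RNF25 KO replicate 2 fell just under the highest AAVS1 library, and the differences were 0.52 ± 0.21 and 0.68 ± 0.21. Lipoic acid synthase LIAS ranged from 0.63 to 1.43, phosphoglucomutase PGM2 from 0.44 to 0.77 and UDP-glucose dehydrogenase UGDH from 0.25 to 0.63. SEPSECS, which makes selenocysteinyl-tRNA, ranged from −0.065 to 0.90. N4BP2, counted in this group although not an enzyme of metabolism in the strict sense, ranged from 0.33 to 1.16. The lipid kinase PI4K2B ranged from 0.40 to 0.63, and 36.6% of its exon length is shared with a gene on the same strand.

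Of the 9 members in ion and lipid transport and organelle membranes, 6 were above 0 in untreated RNF25 KO and 7 in RNF25 GCN2 DKO. The zinc transporter SLC30A9 had 56.0, 75.3 and 68.7 CPM in untreated AAVS1, 123, 114 and 171 in RNF25 KO and 137, 124 and 149 in RNF25 GCN2 DKO, all edited libraries above AAVS1, and log2 fold changes of 1.02 to 1.32. ATP8A1, a phospholipid flippase, ranged from 0.59 to 1.60, the mitochondrial GTPase GUF1 from 0.87 to 1.94 and the endoplasmic reticulum calcium sensor STIM2 from −0.018 to 0.59. The membrane proteins TMEM33 and SMIM14 ranged from 0.66 to 0.96 and from 0.43 to 1.47. ATP10D, another flippase, lies beyond 47 Mb and behaved otherwise. In untreated cells it had 19.8, 44.9 and 21.2 CPM in AAVS1, 12.9, 31.1 and 28.7 in RNF25 KO and 13.0, 27.9 and 26.7 in RNF25 GCN2 DKO, with wide overlap. Under azaC it had 24.0, 40.4 and 28.0 in AAVS1, 12.6, 8.83 and 10.8 in RNF25 KO and 17.7, 39.4 and 40.6 in RNF25 GCN2 DKO, so that RNF25 KO lay below AAVS1 (−1.55 ± 0.44) and the double knockout did not (0.072 ± 0.40). OCIAD1, a mitochondrial membrane protein, had 363, 328 and 365 CPM in untreated AAVS1, 331, 240 and 307 in RNF25 KO and 268, 198 and 361 in RNF25 GCN2 DKO, and its log2 fold changes ranged from −0.36 to 0.081.

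In small GTPases, their regulators and trafficking, 3 of 6 listed genes reached the count minimum. RAB28, a Rab GTPase linked to photoreceptor cilia (chr4:13361354-13484365), had 40.5, 43.9 and 32.1 CPM in untreated AAVS1, 10.5, 16.2 and 14.96 in RNF25 KO and 23.9, 26.1 and 19.1 in RNF25 GCN2 DKO. Both lines were below AAVS1 in every library, with log2 fold changes of −1.47 ± 0.32 and −0.75 ± 0.30. TBC1D1, a Rab GTPase-activating protein, had 37.9, 46.9 and 34.7 CPM in untreated AAVS1, 58.0, 57.2 and 77.9 in RNF25 KO and 48.5, 48.8 and 67.9 in RNF25 GCN2 DKO, all above AAVS1. The differences were 0.69 ± 0.19 and 0.46 ± 0.19. RELL1, counted in this group although it is neither a small GTPase nor a regulator of one, ranged from 0.54 to 1.64. Its exons share 21.5% of their length with another gene on the opposite strand.

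Of the 7 members in cilia, microtubules and cytoskeleton, 5 were above 0 in untreated RNF25 KO and 4 in RNF25 GCN2 DKO. LIMCH1, which activates non-muscle myosin (chr4:41359607-41700044), had 68.9, 51.9 and 55.9 CPM in untreated AAVS1, 190, 169.7 and 141 in RNF25 KO and 219.9, 155 and 128 in RNF25 GCN2 DKO, without overlap. The differences were 1.51 ± 0.24 and 1.52 ± 0.24. SLAIN2, which promotes microtubule growth (chr4:48341322-48426212), was lower: 293, 303 and 214 CPM in untreated AAVS1, 115, 168 and 104 in RNF25 KO and 162, 161 and 135 in RNF25 GCN2 DKO. Every edited library was below AAVS1, the log2 fold changes were −1.06 ± 0.24 and −0.82 ± 0.23, and the range over the 5 comparisons was −1.29 to −0.61. Its neighbour FRYL had 32.7, 53.4 and 44.3 CPM in untreated AAVS1, 51.5, 47.9 and 25.6 in RNF25 KO and 26.6, 48.3 and 32.4 in RNF25 GCN2 DKO, which overlapped. CC2D2A and WDR19, both parts of the cilium machinery, ranged from −0.48 to 0.96 and from 0.57 to 1.29. TAPT1 ranged from 0.64 to 0.91 and APBB2, an adaptor that binds the amyloid precursor protein, from 0.41 to 1.02.

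In cell surface and guidance, SEL1L3 and SLIT2 reached the count minimum and PROM1 and PCDH7 were under it. SEL1L3 had 12.1, 8.48 and 18.0 CPM in untreated AAVS1, 39.5, 34.2 and 55.5 in RNF25 KO and 48.5, 30.8 and 60.3 in RNF25 GCN2 DKO, without overlap, with differences of 1.76 ± 0.38 and 1.86 ± 0.38. SLIT2, the secreted ligand of ROBO receptors, had 23.2, 16.5 and 22.5 CPM in untreated AAVS1, 42.7, 26.7 and 17.4 in RNF25 KO and 30.1, 19.4 and 18.4 in RNF25 GCN2 DKO. Its libraries overlapped, and its log2 fold changes ranged from −0.48 to 0.51.

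OCIAD2, which sits beside its paralogue OCIAD1 at chr4:48885019-48906937 on the minus strand, was nearly absent from AAVS1 and present in all 5 other lines. Its raw counts were 2, 0 and 0 in the untreated AAVS1 libraries, 1, 0 and 3 with azaC and 0, 0 and 0 with HF. In untreated libraries of the other lines they were 57, 78 and 102 in RNF25 KO, 86, 78 and 74 in RNF25 GCN2 DKO, 49, 43 and 43 in GCN2 KO, 52, 53 and 52 in ZNF598 KO and 33, 38 and 43 in eS31 K113R. No AAVS1 library had more than 3 counts, and no library of another line had fewer than 24. The AAVS1 libraries are thus the odd group for this gene, and its difference is not particular to the RNF25-edited lines. From summed counts scaled for library size, untreated GCN2 KO had 84.8 times (95% interval 23.0 to 707) the AAVS1 level, ZNF598 KO 72.3 times (95% interval 19.7 to 602) and eS31 K113R 63.3 times (95% interval 17.1 to 529), with exact binomial intervals that cover counting error only. With HF the AAVS1 libraries held 0 counts, and against a floor of 3 counts over the group GCN2 KO was at least 53.7-fold higher and RNF25 KO at least 90.8-fold higher. In edgeR's quasi-likelihood test with Benjamini-Hochberg adjustment OCIAD2 passed in all 7 comparisons of GCN2 KO, ZNF598 KO and eS31 K113R with AAVS1. The adjusted p ran from 1.62e-11 in HF-treated GCN2 KO to 1.51e-08 in azaC-treated GCN2 KO, and the fitted fold changes against so few counts depend on the prior count. These tests reuse the AAVS1 libraries that helped choose the members, so their p-values are not independent of that choice. A member chosen with AAVS1 near 0 is bound to pass in any line that expresses it. The shared AAVS1 libraries limit every comparison with AAVS1 below in the same way.

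**Figure D4:**
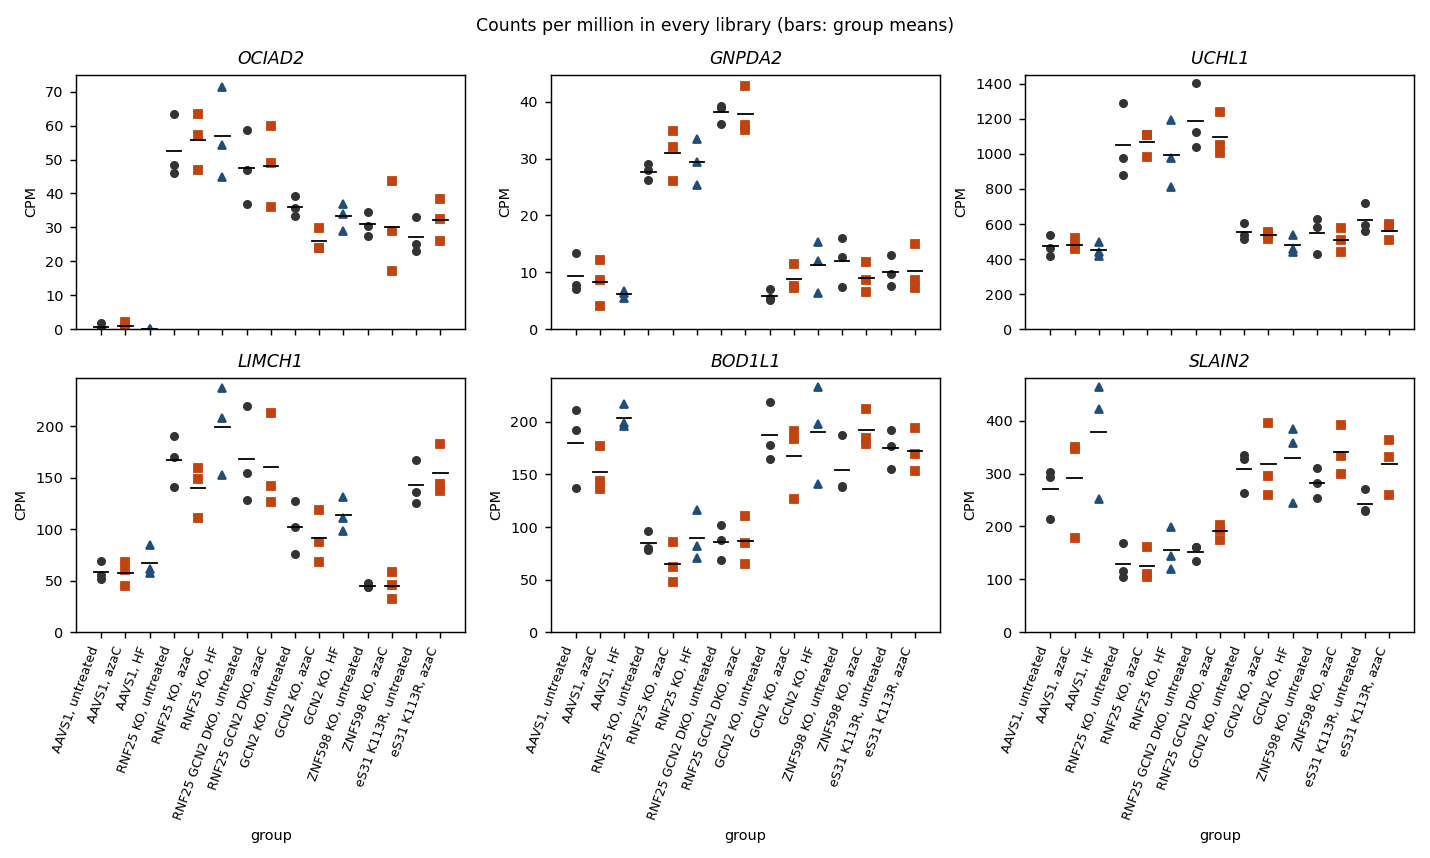
CPM of 6 members in each of the 45 libraries, with group means as bars and treatments as circles (untreated), squares (azaC) and triangles (HF). OCIAD2 is at or near 0 in the 9 AAVS1 libraries only, and GNPDA2 and UCHL1 are high only in the RNF25-edited lines. LIMCH1 is high there and in eS31 K113R, with the GCN2 KO means between those and AAVS1. BOD1L1 and SLAIN2 are low in the RNF25-edited lines.

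In GCN2 KO the members' medians were close to 0. The median log2 fold change from AAVS1 was 0.050 untreated, 0.071 with azaC and 0.080 with HF, beside 0.0019, 0.011 and 0.0037 over all genes, and 25, 28 and 26 of 48 were above 0. In each of the 3 comparisons 1 member passed, OCIAD2, where 1.05%, 1.25% and 3.75% of all 11080 genes passed. LIMCH1 had 102, 127 and 76.3 CPM in untreated GCN2 KO, above the 3 AAVS1 libraries, but its 0.80 ± 0.25 (SE) gave an adjusted p of 0.123, and with HF 0.75 ± 0.24 gave 0.0668. Same-numbered libraries deviated together in the untreated and HF comparisons, and a fit with the replicate number as a block passed 3 of 48 members in each, where it passed 1.86% and 6.26% of all genes. These were OCIAD2, LIMCH1 (adjusted p 0.0324) and ATP10D (−1.36 on the log2 scale, adjusted p 0.0206) untreated, and OCIAD2, LIMCH1 (adjusted p 0.0135) and LDB2 (−0.88, adjusted p 0.0303) with HF. Without the pair of libraries that stood apart and without the block, LIMCH1 also passed with HF (edgeR adjusted p 0.0474). On counts simulated for the untreated comparison, the test recovered 38.5% of 96 genes changed 2-fold and 74.5% of 98 changed 4-fold, among 10750 genes. The simulated libraries were drawn independently, without the shared deviations of same-numbered libraries, so these rates need not hold for the data. RAB28, BOD1L1 and SLAIN2, low in the RNF25-edited lines, differed from AAVS1 in untreated GCN2 KO by −0.28 ± 0.29, 0.057 ± 0.21 and 0.19 ± 0.23, and none passed.

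ZNF598 KO gave medians of −0.038 untreated and 0.077 with azaC, with 21 and 28 of 48 above 0. Again OCIAD2 alone passed in each, against 0.93% and 0.677% of all genes. Here LIMCH1 had 47.9, 43.7 and 44.0 CPM untreated, each below the lowest AAVS1 library, with a difference of −0.37 ± 0.25 (edgeR adjusted p 0.741). UCHL1, at 629, 427 and 583 CPM untreated, overlapped AAVS1 and differed by 0.21 ± 0.16.

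In eS31 K113R the medians were 0.058 untreated and 0.21 with azaC, with 31 and 38 of 48 above 0. The azaC median of chromosome 4 genes beyond 50 Mb was also above 0, at 0.13. In both conditions 2 members passed, OCIAD2 and LIMCH1, against 2.87% and 3.59% of all genes. LIMCH1 had 167, 136 and 125 CPM in untreated eS31 K113R and 183, 137 and 144 with azaC, where AAVS1 with azaC had 68.3, 44.4 and 60.05. All eS31 K113R libraries were above the AAVS1 libraries, and LIMCH1 rose by 1.29 ± 0.24 (SE) with an adjusted p of 4.54e-04 untreated and by 1.43 ± 0.24 with an adjusted p of 9.83e-05 with azaC. Its neighbour UCHL1 differed by 0.40 ± 0.16 untreated (adjusted p 0.263), and TMEM33 on its other side by −0.33 ± 0.16 (adjusted p 0.407). The titles of untreated eS31 K113R replicates 2 and 3 read eS32_K223R, and these libraries were placed by their described column name. RFC1 had 199, 268 and 244 CPM in azaC-treated eS31 K113R against 144, 172 and 157 in AAVS1, and its 0.59 ± 0.18 missed the threshold in edgeR (adjusted p 0.0598). It passed with DESeq2 (adjusted p 0.0366), without the pair of libraries that stood apart (0.0209) and without eS31 K113R azaC replicate 1 (0.0436). With replicate 1 alone kept in the untreated group, the fit assumes that this lone library varies like the other groups, and LIMCH1 and OCIAD2 then had adjusted p-values of 0.00766 and 2.82e-06 (edgeR).

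The double knockout and RNF25 KO were compared directly. The members' median difference was 0.14 untreated and 0.28 with azaC, where chromosome 4 genes beyond 50 Mb had 0.031 and 0.17. No member passed in edgeR in either, against 0% and 0.713% of all genes, and 4 and 7 of 48 members had an unadjusted p under 0.05, as had 2.93% and 12.3% of all genes. The members were chosen for being higher together in both lines, so agreement between the lines was favoured by that choice. Nothing is concluded from the absence of calls. DESeq2 passed 0 and 1 members, the latter ATP10D. Over all genes it passed 1 gene untreated and 0.966% with azaC. With azaC ATP10D differed by 1.62 ± 0.44 (SE; edgeR adjusted p 0.0765), from the azaC libraries given above, in which each RNF25 KO library was lower than each double knockout library. GNPDA2 differed by 0.46 ± 0.30 untreated and RAB28 by 0.72 ± 0.32, and neither passed.

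For azaC against untreated cells 0 members passed in edgeR's test in each genotype. For both drugs, the libraries of AAVS1, RNF25 KO and RNF25 GCN2 DKO had also chosen the members. A lack of calls in those lines is therefore not independent of the choice. The shares of all genes were 0.117% in AAVS1, 0.469% in RNF25 KO, 0% in GCN2 KO, 0% in RNF25 GCN2 DKO, 0.117% in ZNF598 KO and 0.515% in eS31 K113R. In the same order, 3, 2, 2, 1, 0 and 0 of 48 members had an unadjusted p under 0.05, as had 4.83%, 9.31%, 3.66%, 2.63%, 2.99% and 5.22% of all genes. DESeq2 passed 0 members in all 6, and in the same order it passed 18, 62, 0, 0, 16 and 71 of all genes. The members' medians lay between −0.080 in RNF25 KO and 0.0090 in ZNF598 KO. OCIAD2 stayed at 0 to 3 counts in AAVS1 with azaC. For HF, 0 members passed in AAVS1, RNF25 KO and GCN2 KO, against 1.54%, 1.73% and 1.24% of all genes. Unadjusted p-values were under 0.05 for 5, 8 and 5 of 48 members and for 11.2%, 10.9% and 9.8% of all genes. DESeq2 passed 0 members in each, where it passed 229, 265 and 175 of all genes. In AAVS1, where same-numbered libraries deviated together, the fit with a replicate block passed LAP3 (0.70 on the log2 scale, adjusted p 0.0284) and RFC1 (0.56, adjusted p 0.0419), 2 of 48 members beside 3.4% of all genes. Without the pair of libraries that stood apart and without the block, RFC1 passed as well (0.0152). RFC1 had 248, 244 and 221 CPM in HF-treated AAVS1 against 129, 201 and 153 untreated, and LAP3 57.4, 96.3 and 58.0 against 33.6, 42.4 and 51.4.

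The difference between genotypes in the drug responses was tested as an interaction. For azaC it was compared between RNF25 KO and AAVS1 and between RNF25 GCN2 DKO and AAVS1, and for HF between RNF25 KO and AAVS1. No member passed in edgeR, where 0%, 0.0451% and 0% of all genes did, and 1, 0 and 2 of 48 members had an unadjusted p under 0.05, as had 2.75%, 3.33% and 2.63% of all genes. DESeq2 also passed 0 members, where it passed 0, 5 and 0 of all genes. Each interaction is a difference between contrasts that chose the members. The absence of calls is not independent of that choice, and nothing is concluded from it. The members' median interactions were 0.0034, 0.11 and 0.085 on the log2 scale, beside −0.026, 0.13 and 0.062 for chromosome 4 genes beyond 50 Mb.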

How the data were processed

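PolyA RNA of HAP1 cells was sequenced in 45 libraries of 15 groups. Raw counts per gene were deposited by the authors; STAR 2.7.10b, HTSeq 0.9.1 and build GRCh38 are named in the submitters' processing notes. How the counting treated strand, which annotation release it used and whether it collapsed molecular tags is not stated in the labels, so overlapping genes may share counts. Total counts ran from 1135498 to 2478875 per library. Within a library, tested genes had a median count of 27 to 66.

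All 45 libraries were fitted together with edgeR 4.0.16 in R 4.3.3 (quasi-likelihood test, TMM scaling, 1 mean per group, 30 residual degrees of freedom, filter at a count of 10). P-values were adjusted by Benjamini-Hochberg over 11080 genes, with a threshold of 0.05. The 5 comparisons of RNF25 KO or RNF25 GCN2 DKO with AAVS1 chose the members and were described. The 21 others were tested, and those that involve AAVS1, RNF25 KO or RNF25 GCN2 DKO share libraries with the 5. The members and gene lists were chosen with earlier results of these data known. Genes named in full were the member with the highest mean CPM in each role group, the 5 largest and 5 smallest mean differences over those 5 comparisons, members past the threshold elsewhere, and the 2 nearest each edge; others are given by range or as neighbours, chosen after their values were seen. CPM used TMM-scaled totals. Alternatives were DESeq2 1.42.0, its size factors, other filters, only the groups compared, a replicate block and leaving out libraries. No 2 libraries of a group agreed within sampling noise (chi-square per degree of freedom at least 3.10). Replicate numbers come from the labels, and were taken as pairing where every same-numbered pair of deviations correlated above 0.1, which held for GCN2 KO untreated and with HF and for HF in AAVS1 among the comparisons where the block changed a call. The test was tried on simulated data. Promoter letters come from RefSeq.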

Additional observations from a re-analysis of the deposited data

How the results depend on the processing

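No called member changed direction or lost its call under any alternative run, and the medians of the members and of the first 10 Mb kept their sign in the 5 described comparisons. Medians close to 0 did change sign: that of all genes in each of the 5 comparisons under some setting, that beyond 50 Mb in untreated RNF25 KO (−0.076, and 0.0038 without the pair named below), HF-treated RNF25 KO (−0.032, and up to 0.041 without 1 library) and untreated RNF25 GCN2 DKO, and the library scores of untreated AAVS1 and of azaC-treated GCN2 KO and ZNF598 KO. Of the members' median log2 fold changes from AAVS1, that in untreated RNF25 KO was 0.71 without the pair of libraries that stood apart (AAVS1 untreated replicate 2 and RNF25 KO azaC replicate 2, an alternative chosen after seeing the data) and 0.66 relative to chromosome 4 beyond 50 Mb. That in HF-treated RNF25 KO was 0.60 over every listed gene tested, that in untreated RNF25 GCN2 DKO 0.90 without the pair, and that with azaC 0.74 relative to beyond 50 Mb. The first 10 Mb had −0.64, −0.60 and −0.58 in untreated, azaC- and HF-treated RNF25 KO and −0.55 and −0.73 in untreated and azaC-treated RNF25 GCN2 DKO with no filter, and −1.03 in untreated RNF25 KO without the pair. The median over all genes was 0.021 with DESeq2's size factors and 0.021 with DESeq2 in untreated RNF25 KO, 0.019 and 0.018 in untreated RNF25 GCN2 DKO, and under azaC 0 with no filter, −0.0074 with only the groups compared and −0.0051 without the pair. Beyond 50 Mb, untreated RNF25 GCN2 DKO went from −0.020 to 0.047 without the pair. Library scores were 0.81 (HF-treated RNF25 KO) and 0.82 (azaC-treated RNF25 GCN2 DKO) on plain totals, and 0.60 and 0.62 over members with a mean count of 50.

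Leaving out 1 library gave members' medians of 0.53 to 0.70 in untreated RNF25 KO, 0.55 to 0.64 with HF, and 0.57 to 0.90 and 0.74 to 0.84 in untreated and azaC-treated RNF25 GCN2 DKO. The first 10 Mb ranged from −1.04 to −0.88, from −1.01 to −0.95 (HF) and from −1.13 to −1.03 (RNF25 GCN2 DKO, azaC). Beyond 50 Mb, untreated RNF25 GCN2 DKO ranged from −0.13 to 0.052. All genes ranged from −0.0079 to 0.036 (RNF25 KO, azaC), −0.0044 to 0.019 and −0.00060 to 0.011 (RNF25 GCN2 DKO, untreated and azaC). Members called ranged from 1 to 2 in HF-treated GCN2 KO (LIMCH1 without AAVS1 HF replicate 1, LDB2 without replicate 3), 0 to 1 between RNF25 GCN2 DKO and RNF25 KO with azaC (ATP10D without RNF25 GCN2 DKO azaC replicate 1), 0 to 1 for HF in AAVS1 (RFC1 without AAVS1 untreated replicate 2) and 0 to 2 for HF in RNF25 KO (CC2D2A and KLF3 without RNF25 KO HF replicate 3). Calls over all genes were not counted in these fits, so no share stands beside the member counts.

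Calls also moved to 2 in untreated GCN2 KO with no filter, 2 in HF-treated GCN2 KO with only the groups compared, 1 between RNF25 GCN2 DKO and RNF25 KO with azaC by DESeq2 and 1 with no filter, 1 for HF in AAVS1 without the pair, and 1 for HF in RNF25 KO with no filter. In the same order, 133, 406, 107, 173, 144 and 184 of all genes passed. With another filter or fewer libraries the genes tested need not be the same 11080. With the replicate block, members called were 3 in untreated and 3 in HF-treated GCN2 KO and 2 for HF in AAVS1, where the numbers pair the libraries, and 2 between RNF25 GCN2 DKO and RNF25 KO with azaC and 2 for HF in RNF25 KO, where they share only a number. In azaC-treated eS31 K113R, also not paired, RFC1 passed with the block, as it did with DESeq2, without the pair and without eS31 K113R azaC replicate 1, which made 3 members in each. There the block passed 623 of all genes, DESeq2 458 and the fit without the pair 466. Without the pair LIMCH1 passed in HF-treated GCN2 KO, which made 2 members, where 490 of all genes passed. Counts over all genes tested moved too. The block gave 206 for 116 (GCN2 KO, untreated), 228 for 138 (azaC), 694 for 415 (HF), 199 for 103 and 120 for 75 (ZNF598 KO, untreated and azaC), 623 for 398 (eS31 K113R, azaC), 196 for 79 and 1 for 0 (RNF25 GCN2 DKO against RNF25 KO, azaC and untreated), 97 for 52 and 88 for 57 (azaC in RNF25 KO and eS31 K113R) and 377 for 171, 407 for 192 and 250 for 137 (HF in AAVS1, RNF25 KO and GCN2 KO). Only the groups compared gave 15, 24 and 65 (untreated GCN2 KO, ZNF598 KO and eS31 K113R, the last from 318), 29 (RNF25 GCN2 DKO against RNF25 KO, azaC), 4 for 13 and 26 (azaC in AAVS1 and RNF25 KO), 68 (HF in AAVS1) and 3 for 5 (azaC interaction of RNF25 GCN2 DKO). No filter gave 173, 30 and 110 in place of 79, 13 and 52. Without the pair, 79 became 35, and with untreated eS31 K113R replicate 1 alone 318 became 97 and 57 became 26. The cause was not tested. A common biological variation of 22.1% and median gene counts of 27 to 66 limit what 3 libraries a group can show.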
